A study of Mus musculus with 2 samples.

Results

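The genes examined were the glucose and amino acid carrier genes of the mouse, taken as every protein-coding gene of the mm10 RefSeq annotation whose symbol was Slc1a, Slc2a, Slc3a, Slc6a, Slc7a or Slc38a followed by a number. The rule found 66 genes out of 21627 coding genes on chromosomes 1 to 19 and X: 7 in Slc1a, 12 in Slc2a, 2 in Slc3a, 19 in Slc6a, 15 in Slc7a and 11 in Slc38a. H3K36me2, dimethylation of lysine 36 of histone H3, had been mapped in regulatory T (Treg) cells from spleen of C57BL/6 mice. One group was wild type (WT) and the other came from mice with a conditional knockout of Nsd2 in Treg cells (KO); the driver of the deletion, the number and age of the animals and the antibody were not given in the sources used here. Each genotype had 1 library, of 17158154 tags for WT and 14789700 for KO, so there was no replicate error, and no difference between genotypes was tested. The deletion of Nsd2 itself could not be checked in these data.

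Solute carriers move small molecules across membranes. The Slc2a genes encode the facilitative sugar carriers of the GLUT family, the Slc1a genes carriers of glutamate and neutral amino acids, and the Slc38a genes sodium-coupled carriers of glutamine and related amino acids. The Slc7a family comprises the cationic amino acid carriers (CAT), which work alone, and light chains that pair with a heavy chain encoded by Slc3a1 or Slc3a2, while the Slc6a family holds neurotransmitter, taurine, creatine and amino acid carriers. T cells that are activated raise their uptake of glucose, glutamine and leucine, and Treg cells are known to depend on several of the same carriers. NSD2 is a methyltransferase that places H3K36me2, a mark found in gene bodies and between genes.

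The values are base pairs of the gene body, from the first to the last annotated base, that lay inside regions called as enriched for H3K36me2 in each library. Most regions in carrier genes were of the smallest size that could be called. Of 108 WT regions with a base in a carrier gene, 71 (65.7%, exact binomial 95% interval 56.0 to 74.6) were 500 bp long, and of 89 KO regions 54 (60.7%, 49.7 to 70.9). Among regions in any coding gene of at least 2 kb, 51.5% in WT and 53.2% in KO had this length. The longest carrier region was 3022 bp in WT and 3563 bp in KO, against 59059 bp and 58880 bp over all coding genes. All intervals given here cover counting error only.

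Signal per kb of region varied little. The authors' normalised tag count, per 10000000 tags of a library, ran from 12.4 to 19.2 per kb of region in WT, with a median of 15.2, and from 14.0 to 21.6 in KO, with a median of 16.2. Per the file headers, the caller's threshold for a 500 bp peak was 13 tags in WT and 12 in KO. Some carrier regions ended with fewer, down to 11.5 tags in WT. The score of the deposited lists was at that limit or 0.5 above it for 52 of the WT and 49 of the KO carrier regions. None of these regions touched the body of another coding gene, so no carrier shared its cover with a neighbour.

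Of the 66 carriers, 44 held a region in WT and 40 in KO, 36 of them in both libraries. Among all 19186 coding genes of at least 2 kb, 49.4% held a region in WT, 45.1% in KO and 36.1% in both. The carriers were long, with a median body of 33898 bp against 21332 bp, and genes of 10 to under 100 kb, the range of 54 carriers, held a region in 53.6% and 47.7% of cases, and in both libraries in 38.8%. A further 8 carriers had a region in WT only and 4 in KO only, beside 13.3% and 9.04% of coding genes and 14.7% and 8.91% of those of 10 to under 100 kb. The remaining 18 held none in either library, as did 41.6% of coding genes and 37.5% of those of 10 to under 100 kb.

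Pooled over the 3116 kb of carrier gene bodies, 73442 bp lay inside WT regions and 55530 bp inside KO regions. The covered share was 2.36% in WT and 1.78% in KO, close to the 2.53% and 1.89% of all coding genes. KO cover was 75.6% of WT cover in the carriers and 74.8% in all coding genes. By number, KO regions were 82.4% of WT regions (95% interval 61.5 to 110) in carriers and 74.4% (73.2 to 75.6) in all coding genes. With the lists as deposited, the pooled shares of the carriers were thus near those of all coding genes. WT regions of 500 bp were also held to the KO limit scaled to WT depth (13.9 tags), with KO left unfiltered. KO cover was then 115% of WT in the carriers and 97.6% in all coding genes. Because only WT was filtered, this does not show the direction of the pooled difference at a limit common to both libraries. Without regions under 1 kb KO cover was 34.4% of WT in the carriers and 77.2% in all coding genes. Regions of at least 1 kb made up 14.8% of WT and 5.62% of KO carrier regions (16 and 5), and 15.6% and 15.7% of those in all coding genes.

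Less of the body was covered in KO in 30 carriers and more in 16, beside 34.9% and 21.5% of all coding genes and 37.2% and 22.8% of those of 10 to under 100 kb. In 2 carriers the lengths were equal. By at least 1000 bp, 11 carriers had less cover in KO and 4 had more, where 14.8% and 5.54% of coding genes did, and 14.8% and 6.06% of those of 10 to under 100 kb. A difference of at least 20 percentage points of the body was found in 1 carrier in each direction, beside 1.0% and 1.13% of coding genes and 0.227% and 0.166% of those of 10 to under 100 kb. These were Slc6a19, with less, and Slc2a6, with more. The Slc2a6 body of 6638 bp is shorter than that range. Of 5299 coding genes of 2 to under 10 kb, 197 had at least 20 points more in KO. Of the 48 carriers with cover, 23 differed by 500 bp or less, the length of a single smallest region. The median difference in covered share over these 48 was -0.64 points, and -0.69 points over all coding genes with cover.

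**Figure D1:**
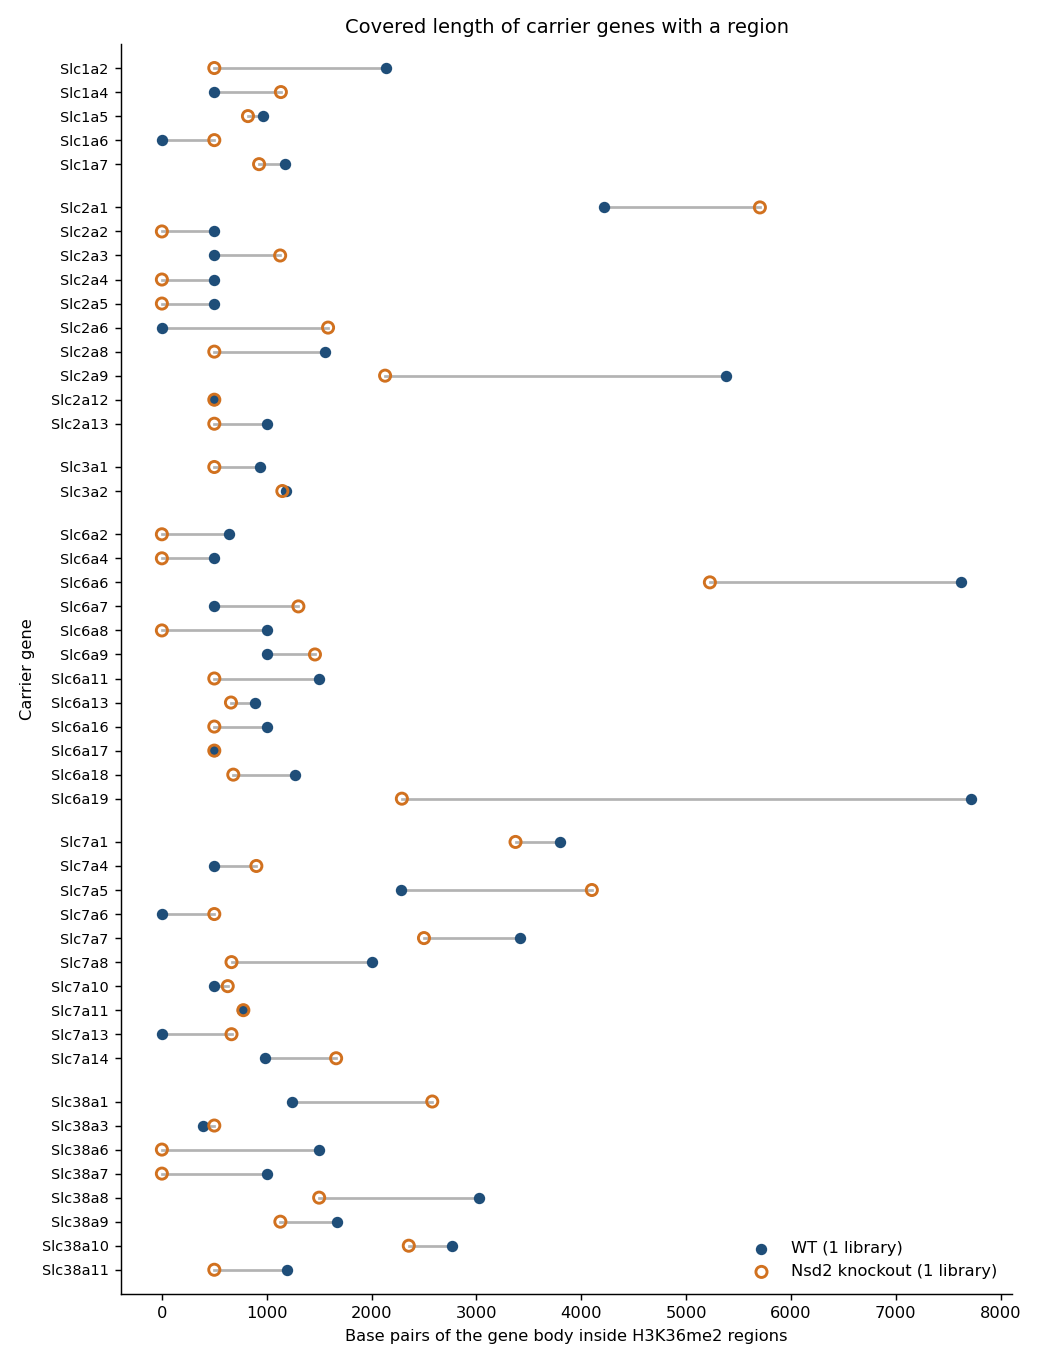
Base pairs inside H3K36me2 regions (horizontal axis) for carrier genes with a region (all but 1 of 48), ordered by family, in WT (filled) and KO (open), 1 library each. Slc6a19, Slc2a9 and Slc6a6 show the longest shifts to less cover in KO, and Slc7a5, Slc2a6 and Slc2a1 the longest to more.

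Most regions of one library had no counterpart at the same place in the other. Of WT carrier regions, 33 (30.6%, 22.1 to 40.2) shared a base with a KO region, and of KO carrier regions 33 (37.1%, 27.1 to 47.97) with a WT region. Over all coding genes the shares were 30.6% and 41.4%. Of the 36 carriers with regions in both libraries, 22 had a base covered in both, while 14 held regions at different positions only. Of coding genes of at least 2 kb, 36.1% held regions in both libraries and 24.0% had such a base. Of those of 10 to under 100 kb, 38.8% and 24.9% did.

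The Slc2a sugar carriers had 14660 bp covered in WT and 12046 bp in KO, 82.2% of WT, with 6 of 12 genes lower in KO, 3 higher and 1 equal. Most of this cover was in a pair of genes that differed in opposite directions. Slc2a1 (chromosome 4, 119108745 to 119137330), encoding GLUT1, the main glucose carrier of activated T cells, held 4218 bp in 4 WT regions and 5704 bp in 6 KO regions. The summed normalised tags of these regions were 71.7 (Poisson 95% interval 59.6 to 85.5) in WT and 95.6 (80.5 to 113) in KO. Such sums, here and for the genes below, count only tags inside regions called separately in each library, so they follow the called length and add no separate support to it.

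The arrangement of the Slc2a1 regions was similar in both libraries. Both libraries covered 3077 of the same bases, the most of any carrier. They lay in a WT region of 2163 bp that was wholly within a KO region of 2892 bp, and in a pair of shorter regions nearer the start. Without regions under 1 kb the difference, KO minus WT, turned from 1486 bp to -326 bp. Without Slc2a1, the other 11 sugar carriers had 10442 bp in WT and 6342 bp in KO.

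Slc2a9 (chromosome 5, 38349272 to 38503147), a urate carrier, had 5382 bp in 9 WT regions and 2129 bp in 4 KO regions. Its tags were 88.6 (75.1 to 104) and 34.5 (25.7 to 45.3), and KO cover stayed lower under each of the 6 alternative settings run (-4190 to -1253 bp). Its body of 153876 bp belongs to a length class of 100 to under 300 kb in which KO cover was 66.1% of WT over all coding genes.

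Slc2a6 (chromosome 2, 27021363 to 27028000), encoding the lysosomal carrier GLUT6, held no WT region and 1585 bp in 2 KO regions. At 23.9% of its body it was the most covered carrier in KO and above 96.6% of coding genes there. Both regions had scores of 12.5, against a limit of 12, and no region remained in the higher-scoring 50% of the lists. Slc2a8, encoding the intracellular carrier GLUT8, went the other way, with 1560 bp in WT and 500 bp in KO.

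The remaining sugar carriers had little cover. Slc2a3, encoding GLUT3, the other main glucose carrier of T cells, had 500 bp in WT and 1128 bp in KO at positions that did not overlap. Slc2a2 of liver and pancreatic beta cells, Slc2a4, the insulin-responsive carrier, and the fructose carrier Slc2a5 each held 1 WT region of 500 bp and none in KO. Slc2a12 had 500 bp in each library, Slc2a13, a myo-inositol carrier, 1000 bp and 500 bp, and Slc2a7 and Slc2a10 none.

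**Figure D2:**
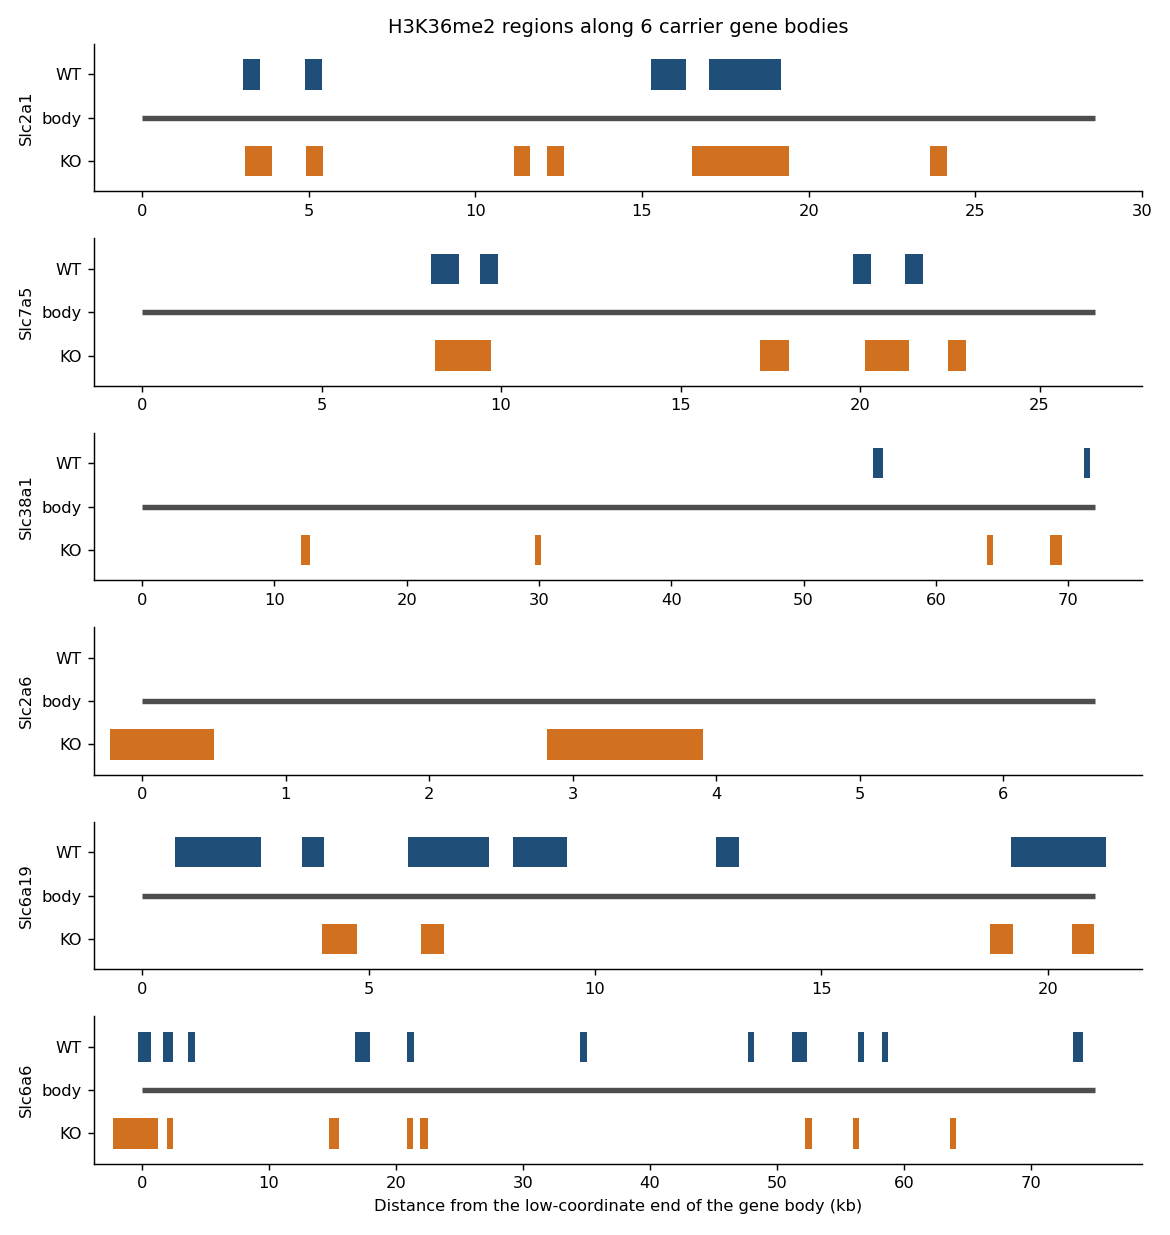
Positions of H3K36me2 regions along 6 carrier gene bodies, in kb from the end with the lower coordinate, for WT (upper row) and KO (lower row); the bar between them is the gene body. Slc2a1 and Slc7a5 hold overlapping regions in both libraries, Slc38a1 regions at different positions, Slc2a6 regions in KO only, and Slc6a19 fewer and shorter regions in KO.

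The Slc7a cationic amino acid carriers and light chains were, with the lists as deposited, the only family with more cover in KO than in WT, 15770 bp against 14247 bp (111% of WT), with 7 of 15 genes higher in KO and 3 lower. Slc7a5 (chromosome 8, 121881146 to 121907686) accounted for it. This gene encodes LAT1, the leucine carrier that supplies the growth kinase complex mTORC1 in T cells. It held 2281 bp in WT and 4101 bp in KO, in 4 regions each, or 8.59% and 15.5% of its body. Tags were 34.7 (26.4 to 44.7) and 66.0 (53.6 to 80.5). The KO regions were longer, at 500 to 1553 bp against 500 to 781 bp, and 1263 bp were covered in both. With gaps under 1 kb closed the difference, KO minus WT, went from 1820 to 290 bp, and in the higher-scoring 50% of regions it was -473 bp. Without Slc7a5 the family had 11966 bp in WT and 11669 bp in KO.

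Slc7a1 (chromosome 5, 148327410 to 148399904), the arginine carrier CAT1, had 3802 bp in 4 WT regions and 3373 bp in 6 KO regions, with tags of 56.8 (46.1 to 69.2) and 59.1 (47.4 to 72.9). Slc7a7, a light chain that exports cationic amino acids, had 3416 bp and 2500 bp, in 6 and 5 regions of which only 41 bp coincided. Slc7a11, the cystine and glutamate exchanger xCT, had a single region in each library, of 765 bp and 777 bp with 657 bp in common. Slc7a6 held no WT region and 500 bp in KO. The brain carrier Slc7a10 had 500 bp and 628 bp, Slc7a14 983 bp and 1662 bp, and Slc7a13 no base in WT and 664 bp in KO. Slc7a4, the shortest carrier gene at 4873 bp, had 10.3% of its body covered in WT and 18.5% in KO by 1 region each, at different positions. Slc7a2, Slc7a3, Slc7a9, Slc7a12 and Slc7a15 held no region. Slc7a8, a relative of LAT1, differed most toward less cover in the family, with 2000 bp and 664 bp.

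The heavy chains had small differences. Slc3a2 (chromosome 19, 8706882 to 8723369), encoding CD98, the partner of LAT1, had 1188 bp in WT and 1149 bp in KO, 652 bp of it in both. Slc3a1, the heavy chain of the kidney cystine carrier, had 932 bp and 500 bp. The difference of Slc3a2, KO minus WT, was -39 bp as deposited, 185 bp with 5 kb flanks and -912 bp in the higher-scoring 50% of regions, so it had no stable direction.

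Among the glutamine carriers of Slc38a, KO cover was 8564 bp against 12781 bp in WT (67.0%), with 6 of 11 genes lower and 2 higher. Slc38a1 (chromosome 15, 96571418 to 96643438), encoding the glutamine carrier SNAT1 of lymphocytes, went against the family with 1245 bp in 2 WT regions and 2579 bp in 4 KO regions. Its tags were 18.4 (12.5 to 26.0) and 42.6 (32.7 to 54.5). No base of Slc38a1 was covered in both libraries, and none of its regions reached 1 kb. Slc38a2, which lies 43953 bp away and encodes the related carrier SNAT2, held no region in either library.

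Slc38a8 (chromosome 8, 119479574 to 119501698) held the longest WT region of all carriers, 3022 bp with 45.2 tags (35.7 to 56.5), where KO had 1 region of 500 bp inside it. With 2 further KO regions the totals were 3022 bp and 1500 bp. The WT region carried a score of 13, at the WT limit, so it was absent from the higher-scoring 50% and KO then had 500 bp more. Slc38a9, a lysosomal carrier that senses arginine for mTORC1, had 1666 bp and 1130 bp with 567 bp in both. Slc38a10 had 2765 bp and 2355 bp, while Slc38a6 and Slc38a7, with 1500 bp and 1000 bp in WT, held none in KO. Slc38a3 had 388 bp and 500 bp, Slc38a11 1195 bp and 500 bp, and Slc38a4 and Slc38a5 none.

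The Slc1a family had the lowest covered share, 1.15% in WT and 0.935% in KO, with 3 of 7 genes lower in KO and 2 higher. Slc1a5 (chromosome 7, 16781334 to 16798274), encoding the glutamine carrier ASCT2 of activated T cells, held 1 region in each library, with 964 bp in WT and 821 bp in KO, and the KO region lay wholly inside the WT one. Its relative Slc1a4 had 500 bp and 1135 bp. Slc1a2, the main glutamate carrier of astrocytes, had 2133 bp in 4 WT regions and 500 bp in 1 KO region, at no common position. Slc1a7 had 1172 bp and 927 bp, Slc1a6 no base and 500 bp, and the glutamate carriers Slc1a1 and Slc1a3 none.

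The Slc6a family had the largest shortfall in KO, 13618 bp against 24865 bp (54.8% of WT), with 10 of 19 genes lower and 2 higher. Without Slc6a19 and Slc6a6, which held most of the WT cover, KO had 64.1% of the WT length, 6102 bp against 9524 bp. Slc6a19 (chromosome 13, 73679745 to 73700780), encoding the neutral amino acid carrier B0AT1 known from gut and kidney, was the most covered carrier in WT. It held 7719 bp in 6 WT regions, 36.7% of its body and more than 98.6% of coding genes, and 2289 bp in 4 KO regions, 10.9%. Tags were 118 (102 to 135) in WT and 35.8 (26.8 to 46.9) in KO. KO cover was lower under each of the 6 alternative settings run, with differences of -6865 to -1690 bp. Without Slc6a19, KO cover over the other carriers was 81.0% of WT.

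The surroundings of Slc6a19 also had less cover in KO. With 50 kb on either side, the body included, 20522 bp in 18 regions were covered in WT and 10336 bp in 15 regions in KO. Slc6a18, a relative that begins 1721 bp away, had 1274 bp and 681 bp, with 551 bp in both. The dopamine carrier gene Slc6a3, a further 83077 bp beyond Slc6a18 and outside that window, had no region.

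Slc6a6 (chromosome 6, 91684048 to 91759063), the taurine carrier, held 7622 bp in 11 WT regions and 5227 bp in 8 KO regions. Tags in these regions were 124 (108 to 141) and 119 (102 to 138). The KO sum includes 55.1 tags of the longest KO carrier region, of 3563 bp, which ran across the lower-coordinate end of the gene and had 1266 bp in the body. With the WT-only filter KO had 605 bp more than WT. KO regions of 500 bp with 11.5 tags, under the KO limit of 12, stayed in. This turn therefore does not show the direction at a limit common to both libraries. Slc6a9, the glycine carrier GlyT1, had 1000 bp and 1460 bp at different positions, and Slc6a7, a proline carrier of brain, 500 bp and 1302 bp. The creatine carrier Slc6a8, on X, had 1000 bp in WT and none in KO. Slc6a16 had 1000 bp and 500 bp and Slc6a17 500 bp in each library, none of it at a common position. The carriers without a region were Slc6a3, Slc6a5, Slc6a12, Slc6a14, Slc6a15 and Slc6a21.

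A list of 12 carriers known from T cells differed in direction from the rest. These were Slc2a1, Slc2a3, Slc1a4, Slc1a5, Slc3a2, Slc7a1, Slc7a5, Slc7a6, Slc7a11, Slc38a1, Slc38a2 and Slc38a9. Because the list was chosen with earlier results of these data known, the values describe it and are not an independent test. Together they had 17129 bp in 21 WT regions and 22397 bp in 32 KO regions, 2.87% and 3.75% of their bodies, so that KO cover was 131% of WT. KO cover was higher in 7 and lower in 4, beside 21.5% and 34.9% of all coding genes. By at least 1000 bp it was higher in 3 and lower in none, beside 5.54% and 14.8% of all coding genes. Their median difference was 0.43 points, against 0 over the coding genes as a whole, 41.6% of which had no region. Over genes with cover it was 0.84 points in the list and -0.69 points in all coding genes. All but Slc38a2 and Slc7a6 held regions in both libraries, as did 36.1% of all coding genes. A covered base was shared in 8 of 12, beside 24.0% of all coding genes.

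That excess came from few genes. The 3 with a difference of at least 1000 bp were Slc2a1, Slc7a5 and Slc38a1, and the other 9 had 9385 bp in WT and 10013 bp in KO, 107% of WT. Without regions under 1 kb the list turned to 70.2% of WT, with 4 lower and 1 higher, beside 11.0% and 7.19% of all coding genes. In the higher-scoring 50% of regions it was at 103%, with 5 lower and 4 higher, beside 26.4% and 16.9%. In the same libraries 9 of 11 marker genes of T cells and Treg cells also had more cover in KO, beside 21.5% of all coding genes. Foxp3 and Cd4 were among them, and 2 markers had no region. The markers had 56118 bp in WT and 65951 bp in KO (118% of WT). Whether the cell make-up of the 2 samples had a part in the result for the carriers was not tested.

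The 13 neurotransmitter carriers had the opposite balance to the T cell list, 8555 bp in WT and 5046 bp in KO (59.0% of WT). All coding genes, at 74.8% of WT, also had less cover in KO. Of these carriers 7 were lower in KO and 2 higher, beside 34.9% and 21.5% of all coding genes. Only 9.71% of their WT cover was also covered in KO, beside 47.9% for the T cell list and 28.6% for all coding genes. The GABA carrier Slc6a11 had 1500 bp in WT and 500 bp in KO, and its relative Slc6a13 889 bp and 659 bp. The noradrenaline carrier Slc6a2 and the serotonin carrier Slc6a4 had 638 bp and 500 bp in WT and none in KO. The 41 carriers on neither list had 47758 bp and 28087 bp (58.8% of WT). Of them 19 were lower in KO and 7 higher, beside 34.9% and 21.5% of all coding genes.

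**Figure D3:**
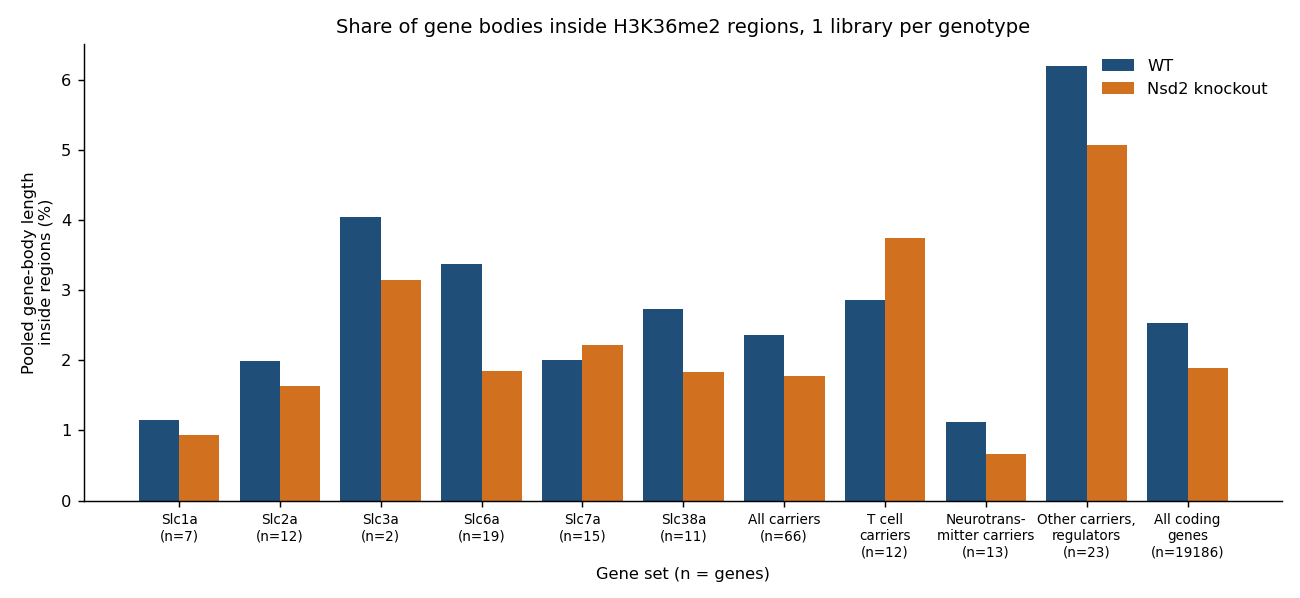
Percent of pooled gene-body length inside H3K36me2 regions (vertical axis) in WT and KO for the 6 carrier families, all carriers, 3 gene lists and all coding genes, 1 library per genotype. KO bars are above WT bars for Slc7a and for the carriers known from T cells.

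Other genes of nutrient uptake had a larger covered share than the carriers, but their median body was shorter. A list of 23 further carriers and regulators had 6.21% of its bodies covered in WT and 5.08% in KO, with 12 lower in KO and 8 higher. The carriers had 2.36% and 1.78%, and all coding genes 2.53% and 1.89%. The median body was 19565 bp in the list and 33898 bp in the carriers. The 22 carriers of 10 to under 30 kb had 5.47% covered in WT and 4.49% in KO. Whether body length accounts for the larger share of the list was not tested. By at least 20 points of the body, 2 of the list had less cover in KO and 1 had more, beside 1.0% and 1.13% of all coding genes. All have bodies of 2 to under 10 kb, where 166 and 197 of 5299 coding genes differed so. Txnip, which removes GLUT1 from the cell surface, had 25.6% in WT (1000 bp in 2 regions) and none in KO. Ddit4, an mTORC1 inhibitor, had 61.0% and 38.7%. Castor1, a cytosolic arginine sensor, had 47.1% and 73.0%. The large neutral amino acid carrier Slc43a2 had 14.3% and 11.6%, the lactate carrier Slc16a3 9.51% and 8.68%, and Slc16a1 none. Myc, a transcription factor that raises carrier expression in activated T cells, held 500 bp in WT and none in KO.

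Pooled cover relative to WT was lower in longer classes of carriers, as in all genes, but the carrier values rest on few genes. Slc6a19 held 7719 of 23554 WT bp and 2289 of 19339 KO bp in the class of 10 to under 30 kb. In the class of 100 to under 300 kb, Slc2a9 held 5382 of 10763 WT bp. KO cover was 83.9% of WT in the 6 carriers under 10 kb, 82.1% in the 22 of 10 to under 30 kb, 78.5% in the 32 of 30 to under 100 kb and 51.7% in the 5 of 100 to under 300 kb. The corresponding values for all coding genes were 101%, 88.2%, 76.1% and 66.1%. Slc2a13, the only carrier over 300 kb, had 0.33% of its body covered in WT and 0.16% in KO.

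**Figure D4:**
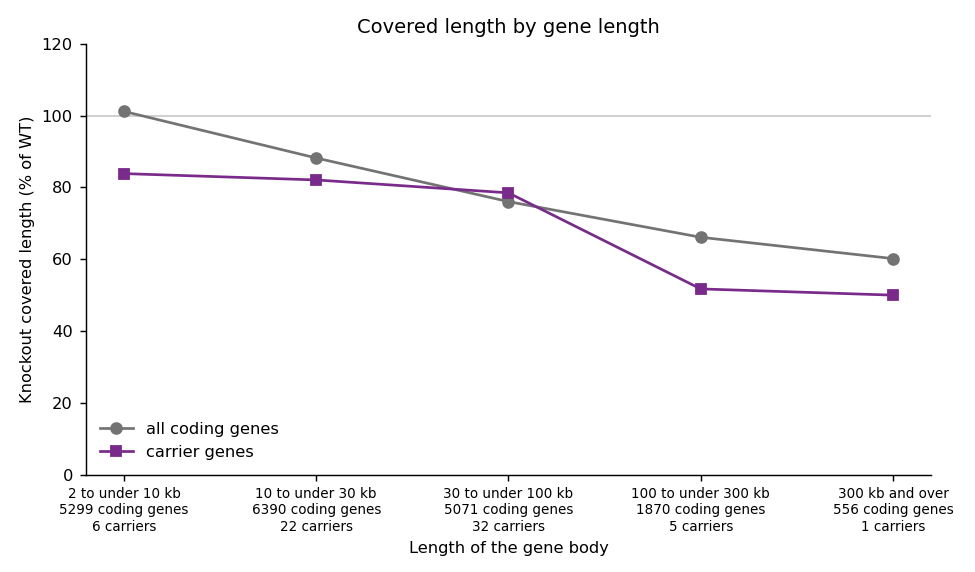
KO covered length as a percent of WT covered length (vertical axis) in 5 classes of gene-body length, for carrier genes (squares) and all coding genes (circles), with the number of genes under each class. Both series are lowest in the longest genes, and the carriers lie below all genes except between 30 and 100 kb.

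Start sites were seldom inside regions. RefSeq start windows, of 250 bases before to 50 after a start on GRCm38.p6, were at hand for 48 of the 66 carriers. A region touched such a window in 5 carriers in WT (10.4%, 3.47 to 22.7) and 3 in KO (6.25%, 1.31 to 17.2), and in 12.7% and 12.5% of all coding genes with a window. Both libraries had Slc1a4 and Slc1a7. WT alone had Slc6a16, Slc6a19 and Slc7a7, and KO alone Slc6a9. The windows of Slc2a1 and Slc3a2 held no region. Within 1 kb of the start, Slc2a1 had no base covered in WT and 99 in KO, and Slc3a2 450 in WT and none in KO. A KO region of 500 bp also crossed the upstream end of the annotated Slc3a2 body, away from that start, with 276 bp inside.

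The windows below are those at which the libraries agreed or differed most, and capitals mark bases inside regions of both libraries. The Slc1a7 window was covered over 300 bases in WT and 123 in KO, and that of Slc1a4 over 7 and 300. The Slc6a19 window was covered in full in WT only, that of Slc6a9 in full in KO only, and that of Slc7a7 over 211 bases in WT only. The first 2 windows lie well inside the annotated bodies. The WT region at the Slc6a19 window was centred at 38.5% of the body. The KO region at the Slc6a9 window, 1 of 3 for that gene, was centred at 40.9%. Near the upstream end of the Slc6a19 body both libraries had cover, with a KO region of 500 bp wholly inside a WT region of 2097 bp.
Slc1a7 promoter, chr4:107968156-107968455, plus strand: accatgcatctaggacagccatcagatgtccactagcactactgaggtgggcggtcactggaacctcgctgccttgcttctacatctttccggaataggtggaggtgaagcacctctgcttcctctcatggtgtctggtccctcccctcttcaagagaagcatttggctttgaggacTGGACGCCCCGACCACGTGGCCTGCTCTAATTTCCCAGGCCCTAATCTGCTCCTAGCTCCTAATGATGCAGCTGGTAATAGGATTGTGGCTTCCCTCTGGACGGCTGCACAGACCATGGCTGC
Slc1a4 promoter, chr11:20332664-20332963, minus strand: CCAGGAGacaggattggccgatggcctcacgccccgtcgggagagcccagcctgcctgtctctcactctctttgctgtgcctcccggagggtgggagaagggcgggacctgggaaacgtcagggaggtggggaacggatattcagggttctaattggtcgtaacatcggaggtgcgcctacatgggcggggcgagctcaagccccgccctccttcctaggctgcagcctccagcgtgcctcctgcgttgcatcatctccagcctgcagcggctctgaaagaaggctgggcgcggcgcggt
Slc6a19 promoter, chr13:73692587-73692886, minus strand: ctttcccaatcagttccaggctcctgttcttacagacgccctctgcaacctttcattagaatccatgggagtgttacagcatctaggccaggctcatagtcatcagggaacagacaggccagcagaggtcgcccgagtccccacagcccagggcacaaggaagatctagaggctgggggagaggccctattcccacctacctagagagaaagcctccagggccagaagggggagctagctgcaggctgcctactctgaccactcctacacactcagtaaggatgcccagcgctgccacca
Slc6a9 promoter, chr4:117849100-117849399, plus strand: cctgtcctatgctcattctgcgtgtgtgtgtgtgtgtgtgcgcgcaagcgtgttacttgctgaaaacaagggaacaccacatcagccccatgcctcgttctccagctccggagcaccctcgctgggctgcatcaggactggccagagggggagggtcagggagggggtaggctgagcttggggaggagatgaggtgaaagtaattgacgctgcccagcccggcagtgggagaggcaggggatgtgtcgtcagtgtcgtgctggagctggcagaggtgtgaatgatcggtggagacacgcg
Slc7a7 promoter, chr14:54417630-54417929, minus strand: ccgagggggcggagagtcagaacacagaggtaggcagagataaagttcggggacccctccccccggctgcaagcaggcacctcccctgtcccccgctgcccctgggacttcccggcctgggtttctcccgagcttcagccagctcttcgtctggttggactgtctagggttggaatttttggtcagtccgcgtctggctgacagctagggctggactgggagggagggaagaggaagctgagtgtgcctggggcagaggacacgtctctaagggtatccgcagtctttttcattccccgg

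All carrier start windows were searched on both strands for CACGTG, the E-box bound by MYC among others, and for TGATGNAA, part of the amino acid response element bound by ATF4 with a C/EBP partner. As written, the motifs can share only the end bases TG, or CA on the other strand. CACGTG was present in 7 of the 68 carrier windows (10.3%) and in 8.44% of 18994 windows of coding genes. TGATGNAA was present in 5 carrier windows (7.35%), of only 4 genes, and in 3.03% of all. Of the windows printed here, Slc1a7 had CACGTG at base 191 and Slc1a4 TGATGNAA, on one of the strands, at base 247, counted from the first printed base. The other 3 held neither motif, though an overlapping Slc7a7 window that is not printed held TGATGNAA at base 8. Median GC content was 56.2% in carrier windows and 57.7% in all, with a median of 9.5 and 15 CG dinucleotides.

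Along the gene bodies no part was without regions. For regions of carriers with a known strand whose centre lay within the body, 22.1% of 77 in WT and 30.6% of 62 in KO were in the first 25% of the body. In the last 25% the shares were 26.0% and 27.4%.

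**Figure D5:**
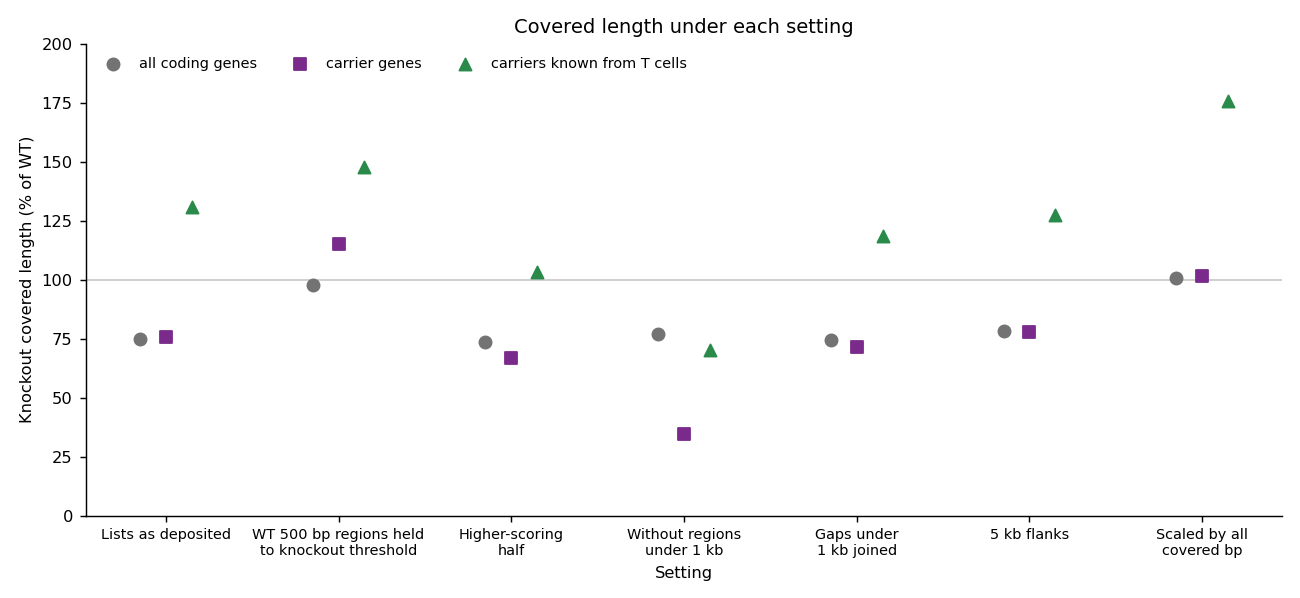
KO covered length as a percent of WT (vertical axis) for all coding genes, the carriers and the carriers known from T cells, with the lists as deposited and under 6 other settings. The carriers known from T cells lie above the carriers as a whole in every setting shown, and lie under 100% only without regions under 1 kb.

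The labelled cell type was checked against marker genes. The 11 T cell and Treg markers had 15.9% of their bodies covered in WT and 18.7% in KO, though Ctla4 and Cd28 held no region. B cell markers had 1.55% and 0.80%, with Ms4a1 at 0 and Cd79b at 39.8% and 48.8%, and myeloid and dendritic markers 1.63% and 1.24%. In WT, NK and CD8 T cell markers had 4.87% (2204 bp in 3 of 5 genes) and erythroid markers 3.55% (761 bp in 1 of 3). Neither set had any cover in KO. All coding genes had 2.53% in WT and 1.89% in KO, and 49.4% and 45.1% of them held a region.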

How the data were processed

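H3K36me2 was profiled with an in situ ChIP library kit in 1 WT and 1 KO library of splenic Treg cells, per the labels' protocols. Per the submitters' processing notes the build was mm10 and the tools included HOMER, Bowtie2, deepTools, Picard and Trim Galore, in versions not given in the sources used here. Per the file headers, the authors called regions with HOMER findPeaks in histone style on each library alone, with no control, joining peaks of 500 bp; the signal deposited is the tag count of a region scaled to 10000000 tags. The score the authors deposited is on the scale of tags per peak, judged from its values. The deposited clonal fold, a ratio, was not used. Scaling to equal totals hides any genome-wide change of the mark.

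Gene bodies came from RefSeq on GRCm38.p6 and covered base pairs were summed in Python 3.11.15 with pandas 2.3.3. The code was tested on a mock KO list, made from the WT list by dropping regions over randomly drawn genes. Tags of a region that crosses a gene end were counted whole. Intervals are exact (Clopper-Pearson, Poisson); that of a ratio of region numbers comes from the binomial share. Members, lists and the rule for named genes were chosen with earlier results of these data known: the 12 carriers known from T cells, the 3 most covered of each family, the 5 largest differences each way, the longest regions and differences of 20 points. Genes named outside this rule, and the sets leaving out named genes, were chosen after their values were seen. The alternatives were the WT-only filter, the higher-scoring 50% of regions, no regions under 1 kb and joined gaps. Others were 5 kb flanks, scaling by all covered base pairs and a stricter overlap. The WT-only filter removed WT regions of 500 bp under 13.9 tags and left KO unfiltered. The values of 1 carrier and 1 B cell marker are not reported here, although pooled counts include them. No genome sequence was used, so regions could not be placed in exons or introns.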

Additional observations from a re-analysis of the deposited data

How the results depend on the processing

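KO cover over the carriers, 75.6% of WT, was 66.8% to 77.8% in the higher-scoring 50%, with joined gaps and with 5 kb flanks. It was 115% with the WT-only filter and 102% after scaling by all covered base pairs. Without regions under 1 kb it was 34.4%, where all coding genes were at 77.2%. The number of KO regions relative to WT was 156% with the WT-only filter and 31.25% without regions under 1 kb. Carriers with less cover in KO numbered 30 as deposited, where 16 had more, beside 34.9% and 21.5% of all coding genes. With the WT-only filter 17 had less and 22 more, beside 24.0% and 28.1% of all coding genes. KO was not filtered there, so this turn does not show the balance at a limit common to both libraries. Without regions under 1 kb, 9 had less and 2 more, beside 11.0% and 7.19% of all coding genes. The share of WT regions with a KO base, 30.6%, was 13.7% in the higher-scoring 50%, 12.5% without regions under 1 kb and 17.6% when at least 50% of the region had to coincide. The carriers known from T cells went to 70.2% without regions under 1 kb. Scaling could not be applied to region numbers, and Slc1a had no WT cover without regions under 1 kb.

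With the WT-only filter Slc1a was at 243% and Slc2a at 125% of WT. After scaling they were at 110% and 111% and Slc3a at 105%. Slc7a was at 90.9% in the higher-scoring 50%. Of 25 named genes, 4 with a difference of at least 1000 bp turned. Slc2a1 went to -326 bp without regions under 1 kb and Slc6a6 to 605 bp with the WT-only filter. Slc7a5 went to -473 bp and Slc38a8 to 500 bp in the higher-scoring 50%. Several smaller differences also changed sign, Slc7a7 and Slc38a10 among them. Apart from what each setting removes, the cause was not tested. No paired analysis was possible because each genotype had 1 library. At 12 or 13 tags per smallest region, a region called in 1 library only may have missed the limit in the other by a tag, and a body without a region is not a body without the mark.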

Other observations

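Some carriers without a region in their body lay in covered surroundings. With 50 kb on either side, Slc7a15 had 5282 bp in WT and 4511 bp in KO, Slc2a10 had 4653 bp and 3267 bp, and Slc38a2 had 3994 bp and 1752 bp. In contrast, Slc6a14, Slc6a15 and Slc7a3 had none in either library even in this window. The cystine carrier light chain Slc7a9 and the arginine carrier Slc7a2 had no region in the body. In the window Slc7a9 had 500 bp in WT and 1246 bp in KO, and Slc7a2 642 bp and none.

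The surroundings did not always follow the gene body. Slc38a1 had more cover in KO in its body, but with 50 kb on either side 4686 bp in 8 regions were covered in WT and 2579 bp in 4 regions in KO. Slc2a3 likewise had 5179 bp and 2286 bp in that window. Both windows include the gene body. The window of Slc2a1, again with the body, had 4218 bp in WT and 6866 bp in KO. These windows were chosen after the values were seen.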
